A study of Homo sapiens with 6 samples.

Results

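The 9 genes EZH1, EZH2, EED, SUZ12, JARID2, RING1, RNF2, BMI1 and PCGF1 encode subunits of the Polycomb repressive complexes, and were taken by name from the 61541 genes of the deposited count table, a choice made with earlier results of these data known although the rule itself uses no measured value. Their transcripts were examined by bulk RNA-seq in H9, a cutaneous T-cell lymphoma line labelled wild type, so that a single cell line is described. Of 6 libraries, 3 were treated with the vehicle DMSO and 3 with AZD4573, a selective inhibitor of CDK9, the kinase that releases paused RNA polymerase II. The exposure was 4 h by the labels and 50 nM by the study's description of this experiment. The labels do not say whether the libraries of a group came from separate cultures, so the p-values cover only the spread between these libraries.

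Polycomb proteins keep developmental genes silent through 2 enzyme complexes. In PRC2, EZH2 or its paralog EZH1 methylates lysine 27 of histone H3, an activity that requires the scaffold SUZ12 and EED, which binds the finished mark, while JARID2 helps recruit the complex and stimulates it. In PRC1, RING1 or its paralog RNF2 (RING1B) attaches ubiquitin to histone H2A, paired with 1 of 6 PCGF proteins, of which BMI1 (PCGF4) belongs to the canonical form and PCGF1 to a variant form with KDM2B and BCOR. In lymphoid cells EZH2 is the PRC2 enzyme of dividing cells, and EZH1 is the one that persists in resting cells.

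Total counts per library ranged from 52101868 to 76571157, and every member was counted in all of them, from 134 counts of PCGF1 to 20287 of JARID2 in a library. Levels are given as CPM, the normalised read count relative to a library size scaled by the TMM method of edgeR, whose quasi-likelihood model also gave the comparison, with p-values adjusted over all 17678 genes tested. Fold changes are log2 values of AZD4573 over DMSO with standard errors (SE). CPM are shares of a library, so that a change in the RNA of all genes together, by fewer cells or less RNA per cell, does not show in them. The T-cell markers CD3D, CD3E, CD3G and CD247 were at 130 to 255 CPM, whereas CD2 did not exceed 0.166 CPM and CD4 lay between 3.61 and 7.35 CPM. Summed over the 9 T-cell markers, the level was 846 to 874 CPM with DMSO and 1071 to 1104 CPM with AZD4573. CD3D, CD3E, CD3G, CD4, CD5 and TRAC were higher in every treated library than in any control, and CD247, CD28 and CD2 were lower. Of the 4 B-cell markers CD79A was high (55.0 to 98.4 CPM), MS4A1 and PAX5 staying at or under 0.344 CPM, and the sum of the list went from 55.4 to 61.3 CPM with DMSO to 89.2 to 99.0 CPM with AZD4573. The 4 epithelial markers summed to 154 to 173 CPM with DMSO and 137 to 142 CPM with AZD4573, nearly all from EPCAM. CDH1 was at 3.60 to 4.87 CPM, and KRT8 and KRT18 were at or under 0.611 CPM. The 4 myeloid markers summed to at most 0.649 CPM. The part of these shifts in the results was not tested.

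Upon AZD4573 treatment 7 of the 9 members fell and 2 rose, all with an adjusted p under 0.05. EED fell most, by 3.21-fold, followed by RNF2 (2.85-fold), PCGF1 (2.32-fold), BMI1 (1.87-fold), EZH2 (1.77-fold), RING1 (1.52-fold) and SUZ12 (1.42-fold). EZH1 and JARID2 rose by 1.45-fold and 1.46-fold, a direction that turned under a scaling to mitochondrial mRNAs. Such changes were frequent in these libraries, since 37.4% of all genes tested fell and 37.3% rose by the same rule. With a fold change of at least 1.5 required as well, 6 members were lower and 0 higher, against 23.7% and 22.7% of all genes, and the 2 rises fell short of this limit. The groups did not overlap for any member, with 7 below and 2 above in every AZD4573 library, where 38.7% and 39.0% of all genes were separated in these directions. The median log2 fold change was -0.83 over the members and 0.03 over all genes tested.

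**Figure D1:**
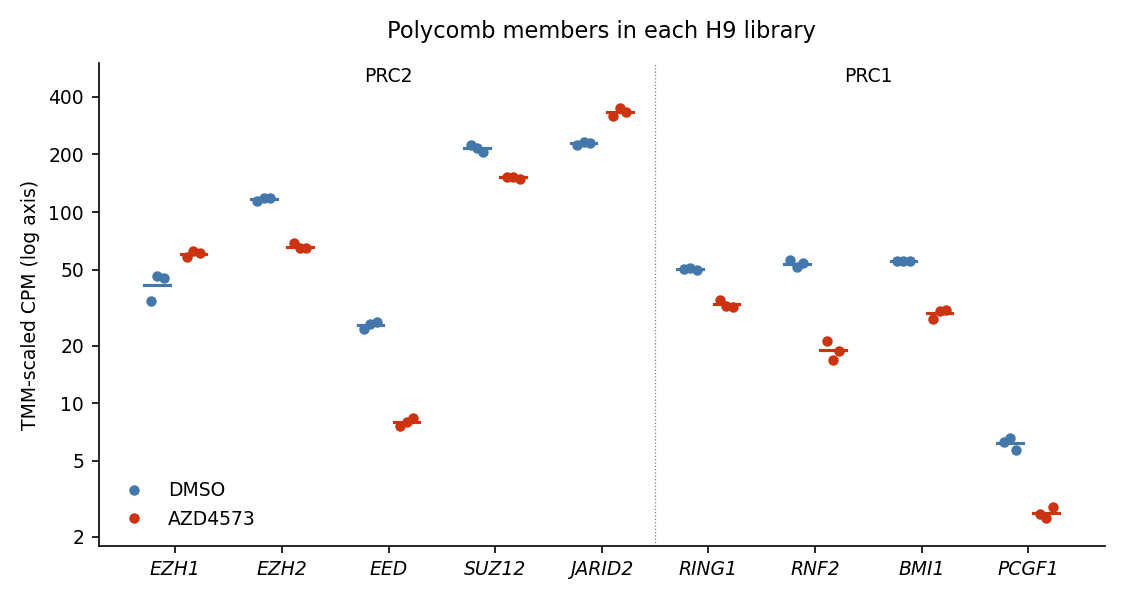
TMM-scaled CPM (log axis) of the 9 members in each library, with DMSO in blue and AZD4573 in red, and short lines at the group means. The red points lie below the blue ones for 7 genes and above them for EZH1 and JARID2 (a direction that turns under the mitochondrial scaling), and the widest gaps are those of EED (25.6 against 7.97 CPM) and RNF2 (53.7 against 18.9 CPM).

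The promoters of the members are shown for the EZH paralogs, which moved in opposite directions under TMM, and for EED and SUZ12, the subunits that both enzymes need. Windows of 300 bases, mostly upstream of the start site and ending just past it (RefSeq, GRCh38.p14), were matched by symbol for all 9 members, with 12 windows in all. Capitals mark the E2F-type motif, searched on both strands as TTTCCCGC, TTTCGCGC, TTTGCCGC and TTTGGCGC, where E2F factors are regulators of S-phase genes. It was present in 1 window each of EZH2, EZH1 and SUZ12 and in none of the other members, and in 3.3% of 34943 promoter windows of this length. The EZH2 window printed is chr7:148884242-148884541 (minus strand), and a further EZH2 window held no E2F-type motif. The window of EZH1 is chr17:42744991-42745290 (minus strand), that of SUZ12 is chr17:31936757-31937056 (plus strand) and that of EED is chr11:86244503-86244802 (plus strand). The RefSeq start of EED used here lies downstream of the first base of the GENCODE gene.
EZH2: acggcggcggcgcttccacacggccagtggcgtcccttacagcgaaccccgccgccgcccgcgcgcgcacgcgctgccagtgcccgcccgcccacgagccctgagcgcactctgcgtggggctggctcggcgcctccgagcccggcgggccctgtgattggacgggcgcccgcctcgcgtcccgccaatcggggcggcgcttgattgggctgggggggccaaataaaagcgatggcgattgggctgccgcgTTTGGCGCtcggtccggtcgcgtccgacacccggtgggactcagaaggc
EZH1: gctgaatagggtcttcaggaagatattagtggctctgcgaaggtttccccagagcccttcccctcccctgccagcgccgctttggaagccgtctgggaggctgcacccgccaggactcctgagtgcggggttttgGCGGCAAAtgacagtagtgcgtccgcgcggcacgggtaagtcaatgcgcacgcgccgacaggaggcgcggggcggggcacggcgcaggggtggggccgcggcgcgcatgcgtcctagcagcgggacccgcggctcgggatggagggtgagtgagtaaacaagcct
SUZ12: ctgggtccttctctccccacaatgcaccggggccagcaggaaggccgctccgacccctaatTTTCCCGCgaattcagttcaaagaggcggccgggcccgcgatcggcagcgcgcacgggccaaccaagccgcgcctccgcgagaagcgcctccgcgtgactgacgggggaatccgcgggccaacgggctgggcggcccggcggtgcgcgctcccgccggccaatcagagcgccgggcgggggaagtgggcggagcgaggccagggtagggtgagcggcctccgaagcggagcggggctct
EED: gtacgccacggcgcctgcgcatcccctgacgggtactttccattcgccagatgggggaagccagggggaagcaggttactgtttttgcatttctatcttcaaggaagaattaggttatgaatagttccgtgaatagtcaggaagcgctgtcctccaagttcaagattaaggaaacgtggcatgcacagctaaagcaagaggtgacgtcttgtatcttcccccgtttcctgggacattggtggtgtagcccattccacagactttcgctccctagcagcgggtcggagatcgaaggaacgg

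The motif starts 1 base downstream of the start site in EZH2, 115 bases upstream in EZH1, where it reads GCGGCAAA on the printed strand, and 189 bases upstream in SUZ12. Of these genes EZH2 and SUZ12 fell, while EZH1 rose under TMM and was at -0.20 under the mitochondrial scaling. Any relation of the motif to these changes was not tested. The EED window held 16 CpG and 52.3% G and C, against 46 CpG and 74.7% in that of EZH2, 40 CpG in that of SUZ12 and 30 in that of EZH1, where the median over all windows was 14 CpG. The TATA motif TATAAA was found in 1 of the 12 windows, that of the upstream start site of JARID2 (11.6% of all windows), and the GATA motif AGATAA in 1, that of PCGF1 (10.4% of all windows), both strands being searched. The motif CCAAT was found in the printed windows of EZH2, SUZ12 and EED and in the upstream window of JARID2 (34.65% of all windows). No binding was measured here, and a match describes letters only.

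EZH2 (chromosome 7 of GRCh38, 148807257 to 148884321, 20 exons in its canonical transcript), the main H3K27 methyltransferase of proliferating cells, was at 114.3, 117.7 and 118.8 CPM in the DMSO libraries and at 68.5, 64.5 and 65.0 CPM with AZD4573. All treated libraries lay well below all controls. Its log2 fold change was -0.83 (SE 0.0447, edgeR adjusted p = 1.9e-09). EZH1 (chromosome 17, 42700275 to 42745049, 21 exons), the paralog with the weaker methyltransferase activity, was at 34.3, 46.1 and 45.0 CPM with DMSO and at 58.0, 62.6 and 61.2 CPM with AZD4573. Its control libraries were the most uneven of any member, DMSO replicate 1 standing apart below the others, and each treated library was still above each control. The log2 fold change was 0.54 (SE 0.0890, edgeR adjusted p = 9.5e-05), and 0.40 without DMSO replicate 1.

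The ratio of paralogs within a library does not depend on how libraries are scaled, and 3 such ratios were compared by an exact two-sided permutation test, for which 0.10 is the smallest p that 3 against 3 libraries allow. There were 3.33, 2.56 and 2.64 EZH2 counts for each EZH1 count with DMSO, and 1.18, 1.03 and 1.06 with AZD4573. The log2 ratio went from 1.497 ± 0.208 to 0.12 ± 0.103 (SD, n = 3), a difference of -1.37 (exact permutation p = 0.10, and 0.10 adjusted over the 3 ratios by the Benjamini-Hochberg method). The ratio was lower in every treated library than in any control. RNF2 to RING1 went from 1.11, 1.01 and 1.08 to 0.610, 0.519 and 0.583, a difference of -0.91 on the log2 scale, with the same exact p of 0.10. BMI1 to PCGF1 went the other way, from 8.83, 8.43 and 9.75 to 10.5, 12.1 and 10.8, a difference of 0.30 (exact permutation p = 0.10), which was smaller than the other 2 but also larger than the spread within the groups.

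**Figure D2:**
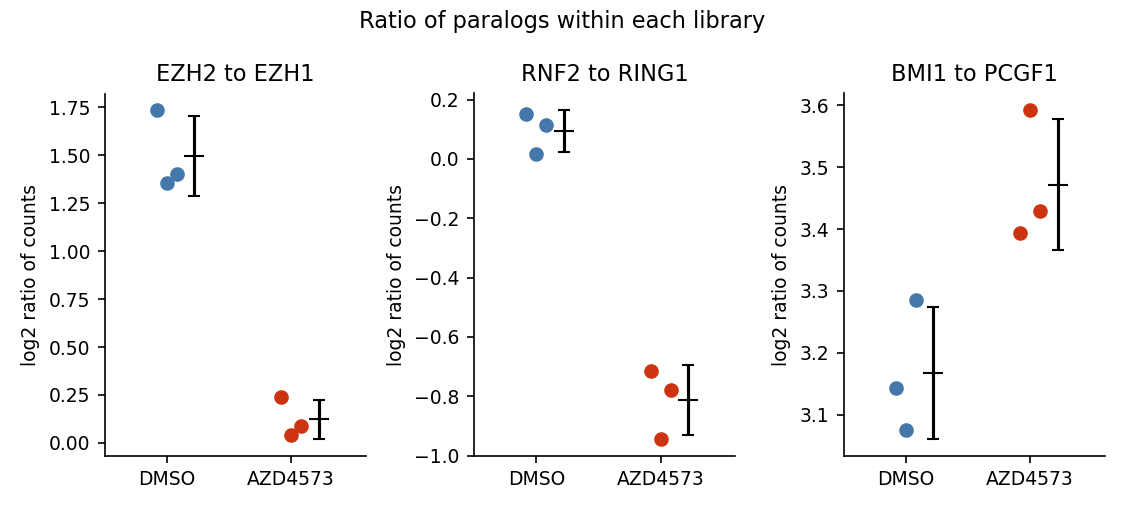
Log2 ratio of the counts of 2 genes within each library, in separate panels for EZH2 to EZH1, RNF2 to RING1 and BMI1 to PCGF1, with points for libraries and a bar for the mean and SD of 3, each panel having its own axis range. The log2 EZH2 to EZH1 ratio went from 1.497 to 0.12 on average, RNF2 to RING1 from 0.09 to -0.81, and BMI1 to PCGF1 from 3.17 to 3.47, each without overlap.

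EED (chromosome 11, 86201212 to 86278813, 12 exons), the WD-repeat subunit through which PRC2 senses H3K27 methylation, was at 24.4, 25.8 and 26.5 CPM with DMSO and at 7.57, 7.96 and 8.37 CPM with AZD4573. The treated libraries lay close together and far below the controls. This was the largest change of any member, at -1.68 on the log2 scale (SE 0.0700, edgeR adjusted p = 2.1e-10), and 4.89% of all genes tested had a lower log2 fold change. SUZ12 (chromosome 17, 31937007 to 32001038, 16 exons), the scaffold of PRC2, was at 224, 217 and 205 CPM with DMSO and at 153, 153 and 149 CPM with AZD4573. Its fall was the smallest among the members that fell, at -0.51 (SE 0.0436, edgeR adjusted p = 1.6e-07). SUZ12P1, a pseudogene of SUZ12 to which reads could be divided, had 896 to 970 counts with DMSO and 375 to 451 with AZD4573, against 15136 to 17601 and 7804 to 9078 for SUZ12 itself.

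JARID2 (chromosome 6, 15246069 to 15522042, 18 exons), an accessory subunit of PRC2 and the member with the longest locus (276.0 kb), was at 225, 231 and 229 CPM with DMSO and at 317, 351 and 332 CPM with AZD4573. The control libraries were almost even and all treated libraries exceeded them. The log2 fold change was 0.55 (SE 0.0441, edgeR adjusted p = 8.7e-08), and 73.4% of all genes tested had a lower value, against 73.0% for EZH1.

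RNF2 (chromosome 1, 185045526 to 185102603, 7 exons), the main E3 ligase of PRC1, was at 55.8, 51.3 and 54.0 CPM with DMSO and at 21.1, 16.8 and 18.7 CPM with AZD4573. It fell by 1.51 on the log2 scale (SE 0.0742, edgeR adjusted p = 7.9e-10). RING1 (chromosome 6, 33208500 to 33212722, 7 exons), its paralog, was at 50.2, 50.8 and 49.9 CPM with DMSO and at 34.6, 32.4 and 32.0 CPM with AZD4573, a log2 fold change of -0.61 (SE 0.0513, edgeR adjusted p = 1.4e-07). The groups did not overlap for either ligase. Per kb of canonical transcript RNF2 was already the lower in the controls (15.8 against 28.9 CPM per kb).

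BMI1 (chromosome 10, 22321099 to 22331484, 10 exons), the PCGF subunit known as a repressor of the CDKN2A locus, was at 55.2, 55.7 and 55.4 CPM with DMSO and at 27.7, 30.3 and 30.7 CPM with AZD4573. It fell by 0.91 (SE 0.0538, edgeR adjusted p = 4.2e-09). Its exons share 1000 of 4395 bases with the read-through gene COMMD3-BMI1, which had 17 to 178 counts in a library against 1409 to 4328 of BMI1. PCGF1 (chromosome 2, 74505043 to 74507695, 9 exons), the subunit that defines the PRC1 form bound to unmethylated CpG islands, was the lowest member, at 6.25, 6.61 and 5.69 CPM with DMSO and 2.63, 2.51 and 2.85 CPM with AZD4573. It fell by 1.21 (SE 0.115, edgeR adjusted p = 4.4e-07). Its locus is the shortest, at 2.7 kb, so that members with loci from 2.7 to 77.6 kb fell while those of 44.8 and 276.0 kb rose.

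Levels can be compared between genes only per length, here as CPM per kb of the canonical transcript. With DMSO the order was SUZ12 (48.0 ± 2.12, SD, n = 3), EZH2 (44.1 ± 0.887), JARID2 (38.1 ± 0.526), RING1 (28.9 ± 0.255), RNF2 (15.8 ± 0.665), BMI1 (15.7 ± 0.0730), EED (12.3 ± 0.523), EZH1 (9.02 ± 1.40) and PCGF1 (6.81 ± 0.511). The ranges of RNF2 and BMI1 overlapped, and no other neighbours in this order did. With AZD4573 JARID2 led at 55.6 ± 2.85 CPM per kb (SD, n = 3), ahead of SUZ12 (33.7 ± 0.558), EZH2 (24.9 ± 0.821), RING1 (19.0 ± 0.806), EZH1 (13.1 ± 0.508), BMI1 (8.35 ± 0.460), RNF2 (5.54 ± 0.631), EED (3.82 ± 0.193) and PCGF1 (2.94 ± 0.191), with no overlap between neighbours. EZH1 moved from the eighth to the fifth place. The order depends on the length used. Over all annotated exons EZH2 was at 10.9 CPM per kb with DMSO and 6.13 with AZD4573, against 5.98 and 8.68 for EZH1. This puts EZH1 above EZH2 in the treated libraries. By that length JARID2 led with DMSO too, at 36.6 CPM per kb against 32.9 for SUZ12.

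The directions of EZH1 and JARID2 depend on the scaling. The alternative scaling below moves all genes downward, so that it can turn a rise but not a fall. The mRNAs of the mitochondrial genome, which RNA polymerase II does not make, took 3.04% to 3.22% of counts with DMSO and 4.67% to 4.98% with AZD4573. Scaled to these 13 mRNAs, the log2 fold change of EZH1 was -0.20 (SE 0.0886, edgeR adjusted p = 0.048) and that of JARID2 -0.19 (SE 0.0527, edgeR adjusted p = 0.0031), so that 9 members were lower and 0 higher. The median of all genes moved from 0.03 to -0.71 under this scaling, which lowered 67.2% and raised 12.1% of them. Relative to that median EZH1 stood at 0.51 and JARID2 at 0.52, the same values as under TMM, and EED at -1.71, RNF2 at -1.53, PCGF1 at -1.24, BMI1 at -0.94, EZH2 at -0.85, RING1 at -0.63 and SUZ12 at -0.53. Which scaling describes the amount of RNA per cell was not tested.

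**Figure D3:**
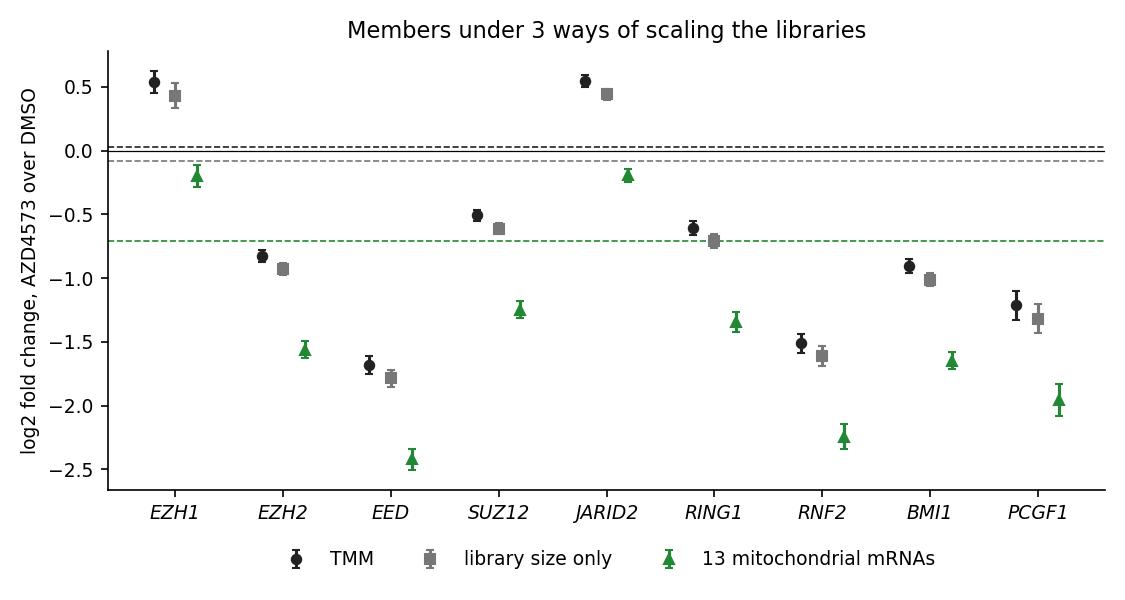
Log2 fold change (AZD4573 over DMSO) of each member with its SE under 3 scalings, namely TMM (black circles), library size only (grey squares) and the 13 mitochondrial mRNAs (green triangles). Dashed lines mark the median of all genes under each scaling (0.03, -0.08 and -0.71), and EZH1 and JARID2 stay above their line while the other 7 stay below it.

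Among the other genes of the Polycomb system, the list of 63 genes (members included) gave 61 tested. Of these 35 (57.4%) fell and 16 (26.2%) rose by the rule used for the members, against 37.4% and 37.3% of all genes, with a median log2 fold change of -0.26. Scaled to the mitochondrial mRNAs, which moved the directions of several genes, 55 were lower and 3 higher, where 67.2% and 12.1% of all genes were. The histone-binding subunits RBBP4 and RBBP7, the remaining core subunits of PRC2, stood at 0.05 (edgeR adjusted p = 0.24) and 0.03 (edgeR adjusted p = 0.44) on the log2 scale, their groups overlapping, and are named here after their values were seen. Of the 7 accessory subunits of PRC2 tested, 3 (42.9%) fell and 2 (28.6%) rose, near the same shares of all genes (37.4% and 37.3%). AEBP2, the zinc-finger partner of JARID2 in the same PRC2 form, was at 30.0, 32.9 and 30.7 CPM with DMSO and 7.92, 7.35 and 7.68 CPM with AZD4573, a log2 fold change of -2.03 (edgeR adjusted p = 4.6e-11). The subunits of one PRC2 form thus moved apart, JARID2 up and AEBP2 down, although JARID2 turned lower under the mitochondrial scaling. The Polycomb-like proteins, which link PRC2 to CpG islands, had MTF2 at -1.45, PHF1 at 0.49 under TMM and -0.25 under the mitochondrial scaling, and PHF19 at -0.03 (edgeR adjusted p = 0.56). PHF19, named after its values were seen, was at 299 to 313 CPM with DMSO and 292 to 314 CPM with AZD4573, and its groups overlapped.

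All 6 PCGF genes passed the test, 4 (66.7%) lower and 2 (33.3%) higher, against 37.4% and 37.3% of all genes. PCGF6, the subunit of the PRC1 form with MGA and E2F6, had a log2 fold change of -1.22 (edgeR adjusted p = 3.3e-09), close to the -1.21 of PCGF1. PCGF3 was at 0.28 (edgeR adjusted p = 8.0e-05), and at -0.46 under the mitochondrial scaling, with 1514 of its 6874 exon bases shared with PCGF3-AS1 on the opposite strand. Of the 10 subunits of canonical PRC1, 6 (60%) fell and 3 (30%) rose, beside the same shares of all genes (37.4% and 37.3%). CBX7, a chromodomain reader of methylated H3K27, rose the most of all 61 genes, from 16.15, 18.80 and 16.98 CPM to 49.5, 55.8 and 54.0 CPM, a log2 fold change of 1.62 (SE 0.0686, edgeR adjusted p = 2.5e-10) that stayed at 0.88 under the mitochondrial scaling. Its exons share 1338 of 7467 bases with an antisense transcript. The polyhomeotic protein PHC2 was at -1.03, and SCMH1 at 0.36 (-0.38 under the mitochondrial scaling).

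Of the 16 subunits of variant PRC1, 10 (62.5%) fell and 3 (18.75%) rose, against 37.4% and 37.3% of all genes. BCORL1, a corepressor of the PCGF1 form, fell the most of the 61 genes, from 11.3, 11.8 and 13.3 CPM to 2.46, 1.81 and 1.65 CPM, a log2 fold change of -2.63 (SE 0.134, edgeR adjusted p = 1.1e-09). YAF2, which binds RNF2 in variant PRC1, was at -1.22. SKP1 and CSNK2B, which share 1137 of 12697 and 675 of 3788 exon bases with unnamed protein-coding genes on the same strand, rose by 0.27 each under TMM and were at -0.47 each under the mitochondrial scaling. Among 12 tested genes of the enzymes that remove ubiquitin from H2A, 6 (50%) fell and 4 (33.3%) rose, near the 37.4% and 37.3% of all genes. ASXL1 and ASXL2, cofactors of the deubiquitinase BAP1, were at -1.0 and -1.18, whereas OGT, the O-GlcNAc transferase found with them, went from 425.1, 466.8 and 493.5 CPM to 956.5, 969.0 and 1027 CPM (log2 fold change 1.09, edgeR adjusted p = 9.7e-10). MBD6 was at 1.07, with 516 of 5566 exon bases shared with DCTN2 on the opposite strand. The H3K27 demethylases moved apart as the methyltransferases did, KDM6A at -0.88 (edgeR adjusted p = 4.5e-09) and KDM6B at 0.69 (edgeR adjusted p = 5.2e-06), the latter being at -0.05 (edgeR adjusted p = 0.56) under the mitochondrial scaling.

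**Figure D4:**
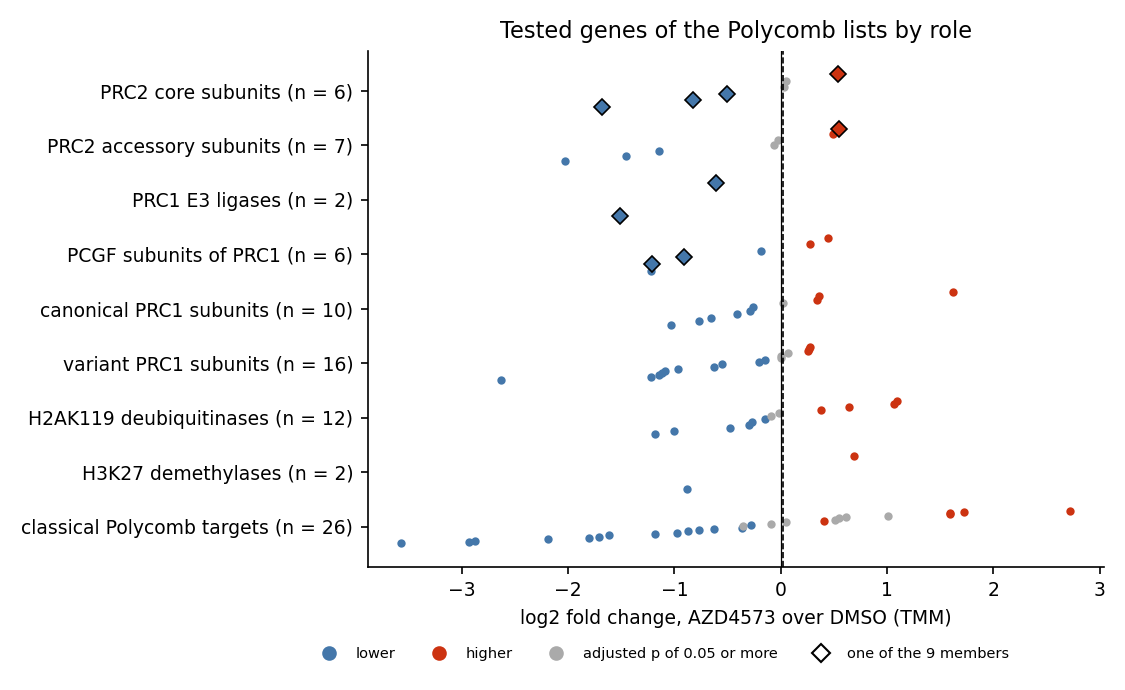
Log2 fold change (AZD4573 over DMSO, TMM) of each tested gene of the Polycomb lists, in rows by role, in blue where lower, red where higher and grey where the adjusted p was 0.05 or more, with diamonds for the 9 members and a dashed line at the median of all genes (0.03). PRC1 E3 ligases hold only lower genes, the other rows hold both directions, and the extremes outside the targets are BCORL1 (-2.63) and CBX7 (1.62).

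Genes that Polycomb is known to silence were examined as the 39 HOX genes with CDKN2A and CDKN2B. Of these 41 genes, 5 had no count in any library (HOXB1, HOXC12, HOXD4, CDKN2A and CDKN2B, named after their values were seen), where a count of 0 in the smallest library allows up to 0.0576 CPM, counting error only. Whether a gene without counts was silent or missing from the genome of this line was not tested. Only 26 were high enough to be tested, and 14 of them (53.8%) fell and 5 (19.2%) rose, against 37.4% and 37.3% of all genes. These counts describe only the genes that passed the filter on low counts, and some passed it only through the group where they were high. HOXA9, a homeobox gene of blood progenitors, went from 40.8, 38.4 and 39.6 CPM to 10.8, 11.4 and 11.8 CPM, a log2 fold change of -1.81 (edgeR adjusted p = 4.9e-11), with 397 of 3033 exon bases shared with an unnamed protein-coding gene on the same strand and 422 with HOXA10-AS. HOXB3 and HOXB9 rose instead, by 1.598 and 1.591 on the log2 scale, from 10.7 to 13.6 CPM and from 7.69 to 8.72 CPM with DMSO to 34.1 to 38.1 CPM and 22.1 to 27.7 CPM with AZD4573, and stayed higher under the mitochondrial scaling (0.86 and 0.85). HOXB3 shares 870 of its 7425 exon bases with other genes, including 433 with HOXB6 on the same strand and 374 with HOXB-AS1 on the opposite strand. No histone mark was measured in these libraries, so whether Polycomb marks changed at these genes was not tested.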

How the data were processed

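RNA of H9 cells was sequenced in 3 DMSO and 3 AZD4573 libraries. Per the labels the libraries were made from poly(A)-selected RNA, whereas the supplemental methods describe rRNA depletion with a directional kit, and which was used here was not settled. Transcripts without a poly(A) tail would enter only the latter. Per the labels and the supplemental methods, the authors trimmed reads with Cutadapt 2.3, aligned them to GRCh38 with STAR 2.7.8a and obtained gene-level expected counts from RSEM 1.3.3 under its default parameters, which take no account of strand. The deposited expected counts are whole numbers without normalization, and 5 reporter sequences were left out. Genes were kept by edgeR's filter (minimum count 10), which left 17678, and compared in edgeR 4.0.16 (R 4.3.3) by TMM factors and the quasi-likelihood test, Benjamini-Hochberg adjusted over all of them. SE are the log2 fold change divided by the square root of F. The procedure was tested on simulated data. No libraries of a group were alike within sampling noise, the chi-square statistic over its degrees of freedom being 5.51 to 20.5 for each pair.

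Named were all members and, from each role list, up to 2 falls and 2 rises that were largest among genes with an adjusted p under 0.05 and at least 5 CPM in the higher group (23 genes beyond the members, of which some are not reported here). The members, lists and rules were chosen with earlier results of these data known, so that no count is independent evidence. Positions, exons and shared exon bases came from GENCODE release 44, whose IDs matched for all 104 genes listed. Alternatives were other scalings, other filters, each library left out, a replicate block, DESeq2 1.42.0, and members with the counts of pseudogenes and read-through genes named after them added.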

Additional observations from a re-analysis of the deposited data

How the results depend on the processing

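The 7 falls among the members held their direction and stayed past the threshold in all 14 alternatives, of which scaling by library size or mitochondrial mRNAs shifts genes downward and could not have turned them. For the 9 members together, 124 of 126 log2 fold changes did so, and the 2 that turned were EZH1 (-0.20) and JARID2 (-0.19) when scaled to the mitochondrial mRNAs, which leaves 0 members higher, 55 Polycomb genes lower and 3 higher. The rises of PHF1 (-0.25), PCGF3 (-0.46), SCMH1 (-0.38), SKP1 (-0.47), CSNK2B (-0.47) and KDM6B (-0.051) reversed under the same scaling, as its shift of -0.74 in the median of all genes brings about, while 316 of the 322 values of the 23 further named genes kept direction and side. With each library left out, EZH1 ranged from 0.40 to 0.60, and between 0 and 1 members were higher by at least 1.5-fold, the 1 being EZH1 without DMSO replicate 2. The 3 ratios of paralogs kept their sign in all 8 alternatives. Whether the replicate numbers pair the libraries was not settled. Correlations of same-numbered deviations were -0.00724, 0.0707 and -0.0203, which cannot show whether such libraries were handled together. With a replicate block 7 members were lower and 2 higher, as without it. Depth limits little here except for PCGF1, whose 134 to 490 counts gave the largest SE of the members.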

Other observations

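The following values were chosen after the data were seen and were not tested. Per kb of canonical transcript, there was 0.231 ± 0.00286 EED for each EZH1 plus EZH2 with DMSO and 0.101 ± 0.00593 with AZD4573 (SD, n = 3), while SUZ12 for each EZH1 plus EZH2 was at 0.906 ± 0.0762 and 0.888 ± 0.0102. The first ratio was lower in every treated library than in any control, whereas the ranges of the second overlapped. The second result depends on the lengths used. Over all annotated exons SUZ12 was at 32.9 CPM per kb with DMSO and 23.1 with AZD4573, EZH2 at 10.9 and 6.13, and EZH1 at 5.98 and 8.68. By these lengths the second ratio was lower with AZD4573 as well. Among the 6 PCGF genes, the share of PCGF3 in their summed level per kb went from 22% ± 0.717 to 38.2% ± 0.286, that of BMI1 from 28.7% ± 0.399 to 21.9% ± 0.986, and that of PCGF6 from 24.5% ± 1.15 to 15.0% ± 1.38 (SD, n = 3). Such shares do not depend on the scaling of libraries but do depend on the transcript lengths used.

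Of 11 HOXA genes tested, 6 fell and 1 rose, and of 8 HOXB genes 4 fell and 3 rose. Of 4 HOXC genes 2 fell and 1 rose, and of 3 HOXD genes 2 fell and 0 rose, in edgeR's test over the same adjustment. Over all genes tested 37.4% fell and 37.3% rose. Some of these HOX genes passed the filter only through the group where they were high, so nothing is drawn from their direction. Among them are the only HOXA rise, HOXA4 (9 to 17 counts with DMSO, 64 to 80 with AZD4573), and the falls of HOXB6 and HOXD13. Within HOXB the rises of HOXB3 and HOXB9 stood beside falls of other genes of the cluster.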
